A study of Homo sapiens with 24 samples.

Results

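Collagen VI is a beaded-filament collagen of the matrix around cells, and 5 of its chain genes, COL6A1, COL6A2, COL6A3, COL6A5 and COL6A6, were followed here in human sensory neuron cultures under 3 cytokine treatments. The genes were chosen by name, and each has 1 entry among the 36468 entries of the count table. COL6A1 rose under interleukin (IL)-4 and IL-13, on average by 1.32 ± 0.15 (SE) on the log2 scale in 6 batches, while the other chain genes did not pass the same test. The amount of COL6A2 relative to COL6A1 was lower in every culture given IL-4 and IL-13 than in any other culture. None of the 5 genes passed the test against vehicle under TGF-β or IL-6, where 0.0418% and 0% of all genes tested passed, so that a count of 0 is no result about the members.

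All cultures came from H9, a wild-type human embryonic stem cell line labelled H9WAO9, which was taken through vagal neural crest spheroids to sensory neurons. Each of 6 batches of differentiation gave 1 culture per group, 24 libraries in all. The 4 groups were Vehicle (BSA in PBS), TGF-β (2 ng/ml), IL-4+IL-13 (10 ng/ml and 3 ng/ml) and IL-6. The first 3 groups were exposed for 5 days, and the labels give no dose or duration for IL-6. As whole cultures of 1 line were lysed, and the study's own flow cytometry counted a minority of the cells as neurons, a level is that of the mixed culture. In such samples, fewer cells of a type and less RNA per cell cannot be told apart.

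Collagen VI is built from a trimer of 1 α1, 1 α2 and 1 α3 chain, the products of COL6A1, COL6A2 and COL6A3, and is secreted as a tetramer that assembles into microfilaments. The α5 and α6 chains, from COL6A5 and COL6A6, resemble the α3 chain and are thought to take its place in some tissues. In peripheral nerve, collagen VI lies in the endoneurium and around Schwann cells, and mutations of the trimer genes cause muscle disease. IL-4 and IL-13 signal through STAT6 and TGF-β through SMAD proteins.

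The genes form 2 pairs of head-to-tail neighbours and a single locus. In GRCh38.p14, COL6A1 lies on the forward strand of chromosome 21 (45981770 to 46005048), and COL6A2 follows it on the same strand (46098112 to 46132848) after a gap of 93063 bases. COL6A5 (130345672 to 130484846) and COL6A6 (130516720 to 130677042) lie on the forward strand of chromosome 3, 31873 bases apart. COL6A3 is alone on the reverse strand of chromosome 2 (237324018 to 237414164). The MANE Select transcripts span 4203 bases in 35 exons for COL6A1, 3445 in 28 for COL6A2, 10532 in 44 for COL6A3, 8969 in 41 for COL6A5 and 8689 in 37 for COL6A6. The COL6A2 span overlaps no other GENCODE gene but does overlap the RefSeq locus LOC124905043. The strandedness of the libraries is not given in the sources used here. Reads of that overlap could therefore not be assigned to either locus, had the RefSeq locus been among the genes counted.

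The start regions of 3 of the 5 genes were matched in RefSeq, and the bases before each start are shown to set side by side the starts of a trimer gene with TATAAA, a trimer gene without it and a gene of an α3-like chain. COL6A2 is given from chr21:46097862-46098111 on the forward strand, COL6A3 from chr2:237414165-237414414 on the reverse strand and COL6A6 from chr3:130516927-130517176 on the forward strand, all in GRCh38.p14 and 5′ to 3′. The starts of COL6A2 and COL6A3 are the first bases of the spans given above, whereas the COL6A6 start used here, base 130517177, lies 457 bases inside its RefSeq gene span, so its window falls within that span. Capitals mark TATAAA, read on either strand, and GTCTG, the SMAD box.
COL6A2: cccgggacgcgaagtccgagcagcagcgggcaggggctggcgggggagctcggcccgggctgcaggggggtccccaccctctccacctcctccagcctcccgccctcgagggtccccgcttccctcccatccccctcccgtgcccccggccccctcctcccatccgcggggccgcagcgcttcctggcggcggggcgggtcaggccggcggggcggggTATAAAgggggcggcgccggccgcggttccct
COL6A3: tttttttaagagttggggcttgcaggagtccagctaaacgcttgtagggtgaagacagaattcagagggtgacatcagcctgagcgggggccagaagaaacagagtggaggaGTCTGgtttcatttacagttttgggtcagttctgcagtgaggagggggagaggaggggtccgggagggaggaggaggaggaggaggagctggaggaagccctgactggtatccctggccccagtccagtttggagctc
COL6A6: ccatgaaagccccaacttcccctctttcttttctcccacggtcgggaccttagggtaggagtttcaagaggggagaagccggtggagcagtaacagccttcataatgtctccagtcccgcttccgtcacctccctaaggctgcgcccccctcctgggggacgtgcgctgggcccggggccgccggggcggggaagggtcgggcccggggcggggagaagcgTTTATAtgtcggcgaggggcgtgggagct

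COL6A2 held TATAAA 32 bases before its start on the forward strand and 4 matches to the GC box GGGCGG. COL6A6 held TATAAA 29 bases before its start, on the reverse strand, and 2 GC boxes, and COL6A3 held neither motif. COL6A3 had the 1 match to GTCTG, 138 bases before its start. Neither form of the STAT palindrome, TTCNNNNGAA and TTCNNNGAA, was found on either strand in the 3 windows. The 5 motifs occur in 11.5% (TATAAA), 45% (GGGCGG), 45.3% (GTCTG), 6.44% (TTCNNNNGAA) and 7.66% (TTCNNNGAA) of the 35116 RefSeq start windows. Those windows run from 250 bases before the start to 50 bases after it, longer than the stretches shown. None of the matches overlapped another. A match is a description of the letters and not a site or a cause, and its absence says only that the letters are not in the window. COL6A1 and COL6A5 were not matched.

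The libraries held 33342682 to 39817784 counted reads each (median 35775126). Of the 24 libraries, 20 were most like the other libraries of their own batch, by the correlation of log2 CPM, the library-scaled counts, after removal of the treatment means. The vehicle library of batch 2 was not: its mean r with its own batch was 0.027, against 0.412 with batch 4. The vehicle library of batch 4 lay closest to batch 2 (0.382, against 0.164 with its own), and batch 3 was the closest for 2 other cultures of batch 4, those given TGF-β and IL-4+IL-13. The edgeR changes of the 5 genes against vehicle are therefore also given in batches 1, 3, 5 and 6 only, an alternative chosen after the data were seen. Of the response genes of the 3 treatments that are reported here, 4 rose under IL-4+IL-13 (CISH, CCL26, ALOX15 and IL13RA2). In that comparison with vehicle 0.324% of all genes tested passed. None of the response genes passed against vehicle under TGF-β or IL-6, where 0.0418% and 0% of all genes did. The IL13RA2 call was lost without batch 5 (adjusted p = 0.0952 in edgeR) or batch 6 (0.0788), and in batches 1, 3, 5 and 6 only (0.0602). CISH, CCL26, ALOX15 and IL13RA2 are among the genes that the study picked from these libraries, as is TGFBI. Between TGF-β and IL-4+IL-13, where 1.83% of all genes passed, those 4 were lower under TGF-β in 6 of 6 batches. SKIL (0.45 ± 0.06, SE, log2) and TGFBI (2.34 ± 0.30) were higher in 6 of 6 (edgeR adjusted p = 0.00164 for each). Against vehicle, SKIL was higher under TGF-β in 6 of 6 batches and TGFBI in 5, and neither passed.

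In vehicle cultures, the trimer genes were among the abundant mRNAs and COL6A5 and COL6A6 among the scarce ones. By mean raw count in vehicle, COL6A2 ranked 156 and COL6A1 188 of 27622 gene symbols, COL6A3 ranked 1020, COL6A6 10999 and COL6A5 13912. Per transcript length, as RPKM, the library-scaled count per kilobase of transcript, the vehicle medians were 162 for COL6A2, 116 for COL6A1, 16.7 for COL6A3, 0.436 for COL6A6 and 0.105 for COL6A5. COL6A3, whose chain is present in equal number with the other chains of the trimer, had a lower level per length than either partner in every group, with its highest RPKM at 45.6 and the lowest of COL6A1 at 73.0. The 5 genes together took between 0.0807% and 0.161% of all counts in vehicle. Under IL-4+IL-13 their share was 0.135% to 0.284%. The 3 trimer genes made up at least 96.0% of that sum in every library.

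COL6A1, the α1 chain gene, was the member that responded most clearly. Its normalized count, the read count divided by the TMM factor-scaled library size, had a lowest, median and highest value of 14498, 17661 and 24456 in vehicle, 13120, 20185 and 29496 under TGF-β, 24941, 49631 and 61678 with IL-4+IL-13, and 11094, 18280 and 22436 under IL-6. All 6 IL-4+IL-13 cultures were higher than all vehicle and IL-6 cultures, and the lowest of them, from batch 2, lay within the range of TGF-β. Within batches, the IL-4+IL-13 culture had between 1.24 and 3.53 times the COL6A1 of its vehicle, with a median of 2.80. The lowest ratio came from batch 2 and the highest from batch 4, whose vehicle libraries resembled each other's batch, and the other 4 batches lay between 2.52 and 2.85.

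**Figure D1:**
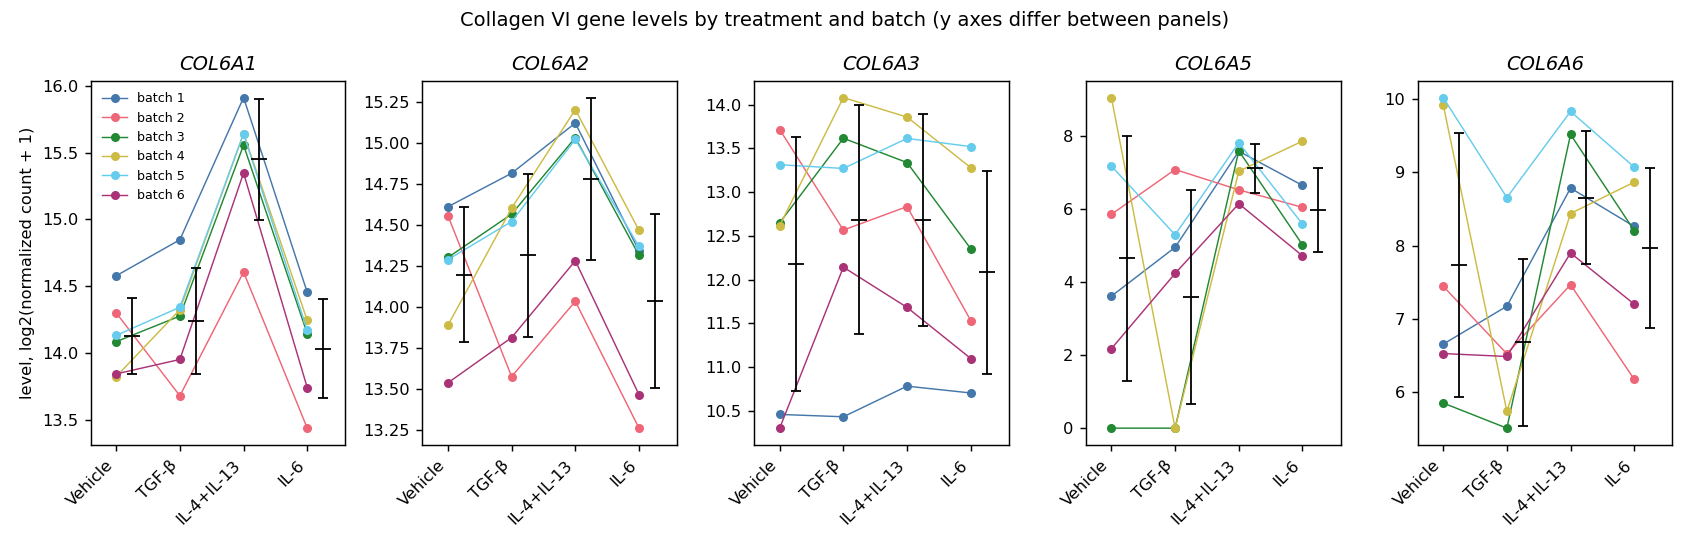
Levels of the 5 collagen VI genes, as log2(normalized count + 1), in the 4 groups on the x axis. Each coloured line joins the cultures of 1 batch, and the black mark beside each group is the mean with the SD over 6 batches. COL6A1 peaks under IL-4+IL-13 in every batch, with group means of 15.45 against 14.13 in vehicle.

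COL6A1 was 1 of 5 members to pass at an adjusted p under 0.05 in the comparison of IL-4+IL-13 with vehicle, where 0.324% of the 28701 genes tested passed (edgeR, adjusted p = 0.00137). It was also past a log2 fold change of 1, as were 0.251% of all genes, and it was called by DESeq2 (adjusted p = 2.12e-13), which called 1.35% of all genes. Leaving out each batch in turn gave log2 fold changes between 1.22 and 1.54 and adjusted p values up to 0.049. In batches 1, 3, 5 and 6 only, the change was 1.45 ± 0.08 (SE, edgeR adjusted p = 4.23e-05). In a fit of the 12 libraries of these groups alone, the change was 1.33 but the adjusted p was 0.0666. COL6A1 is one of the genes the study named from these libraries, so its call is not independent evidence.

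TGF-β was also compared directly with IL-4+IL-13. The within-batch differences of this comparison leave the vehicle libraries out, while the edgeR values come from the 18 libraries that include them unless a fit of 12 libraries is named. COL6A1 was lower under TGF-β in 6 of 6 batches, with log2 differences from -1.40 to -0.93, and the edgeR difference was -1.22 ± 0.15 (SE, adjusted p = 0.00144), and -1.21 ± 0.08 in the fit of the 12 libraries of both groups (adjusted p = 0.000214). It was again the 1 member of 5 to pass, in a comparison in which 1.83% of all genes passed. Against vehicle, the TGF-β change of COL6A1 was 0.10 ± 0.15 (SE, edgeR adjusted p = 1), and the IL-6 change was -0.12 ± 0.13 (edgeR adjusted p = 0.886). In batches 1, 3, 5 and 6 only these were 0.19 and -0.03. The treatments are each compared with the same vehicle libraries. In order of mean level, IL-4+IL-13 stood above TGF-β by 1.21 ± 0.18 (SD over 6 batches, log2), whereas TGF-β, vehicle and IL-6 differed from their neighbours by 0.11 and 0.10, less than the SD of the batch differences (0.38 and 0.42).

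COL6A2, the α2 chain gene and the neighbour of COL6A1, had a smaller change that did not pass. Its normalized counts had a lowest, median and highest value of 11904, 20118 and 25045 in vehicle, 12220, 23905 and 28848 under TGF-β, 16794, 33399 and 37739 with IL-4+IL-13, and 9827, 20581 and 22660 under IL-6. The groups all overlapped, and IL-4+IL-13 was above its vehicle in 5 of 6 batches, with batch 2 as the exception (0.696 times its vehicle). The change under IL-4+IL-13 was 0.56 ± 0.18 (SE, log2) and did not pass (edgeR adjusted p = 0.415).

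The COL6A2 call turned on batch 2. Without that batch the change was 0.82 and passed (edgeR adjusted p = 0.00469), and in batches 1, 3, 5 and 6 only it was 0.68 ± 0.07 (SE, adjusted p = 0.00257). Against the TGF-β culture of the same batch, COL6A2 was higher under IL-4+IL-13 in 6 of 6 batches, with TGF-β minus IL-4+IL-13 differences from -0.60 to -0.31. The edgeR difference of -0.47 ± 0.18 (SE, TGF-β minus IL-4+IL-13) in the fit that includes vehicle did not pass (adjusted p = 0.327). It passed in the fit of the 12 libraries of both groups (-0.46 ± 0.06, adjusted p = 0.00619), in batches 1, 3, 5 and 6 only (0.0108) and without batch 2 (0.034). Under TGF-β and IL-6 the changes from vehicle were 0.10 ± 0.18 and -0.21 ± 0.17 (SE, edgeR adjusted p = 1 and 0.855), and 0.24 and -0.06 in batches 1, 3, 5 and 6 only.

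**Figure D2:**
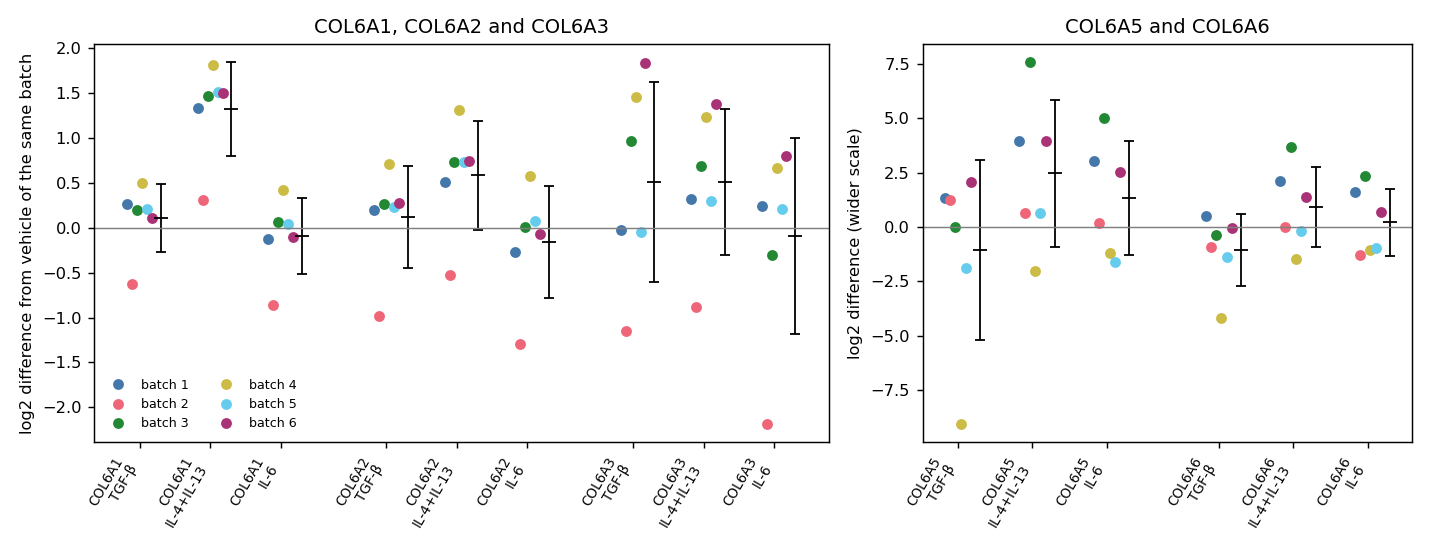
Difference of each treated culture from the vehicle culture of its batch, as log2(normalized count + 1), for the trimer genes on the left and for COL6A5 and COL6A6 on a wider scale on the right. Points are the 6 batches and black marks are the mean with the SD. For COL6A1 under IL-4+IL-13 all 6 points lie above 0, from 0.30 to 1.82, and the batch 2 points lie lowest for the trimer genes.

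The proportion of the neighbouring genes COL6A1 and COL6A2 also differed under IL-4+IL-13. Per transcript length, the ratio of COL6A2 to COL6A1 had a lowest, median and highest value of 0.988, 1.32 and 1.46 in vehicle, 1.11, 1.29 and 1.49 with TGF-β, and 1.01, 1.25 and 1.43 with IL-6, but 0.584, 0.808 and 0.900 under IL-4+IL-13. The IL-4+IL-13 range did not overlap that of any other group. A ratio within a library does not depend on its depth or on the scaling factor.

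Within batches, the log2 ratio under IL-4+IL-13 less that in vehicle was -0.74 ± 0.12 (SD), lower in 6 of 6. An exact two-sided sign-flip test over the 6 batches gave p = 0.0312, the smallest it can give, and 0.188 after adjustment over 12 such tests (4 quantities in 3 treatments). In an exact permutation test within batches over all 4 libraries of each, added after the data were seen, IL-4+IL-13 differed from the mean of the other libraries by -0.72 with p = 0.000244, the smallest it can give, and an adjusted p of 0.00293. In batches 1, 3, 5 and 6 only the value was -0.78. The ratio changed by 0.01 ± 0.21 under TGF-β and by -0.07 ± 0.21 under IL-6 (SD, n = 6), within the spread between batches (exact sign-flip p = 0.906 and 0.594). These tests use the level of COL6A1, which the study had picked.

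**Figure D3:**
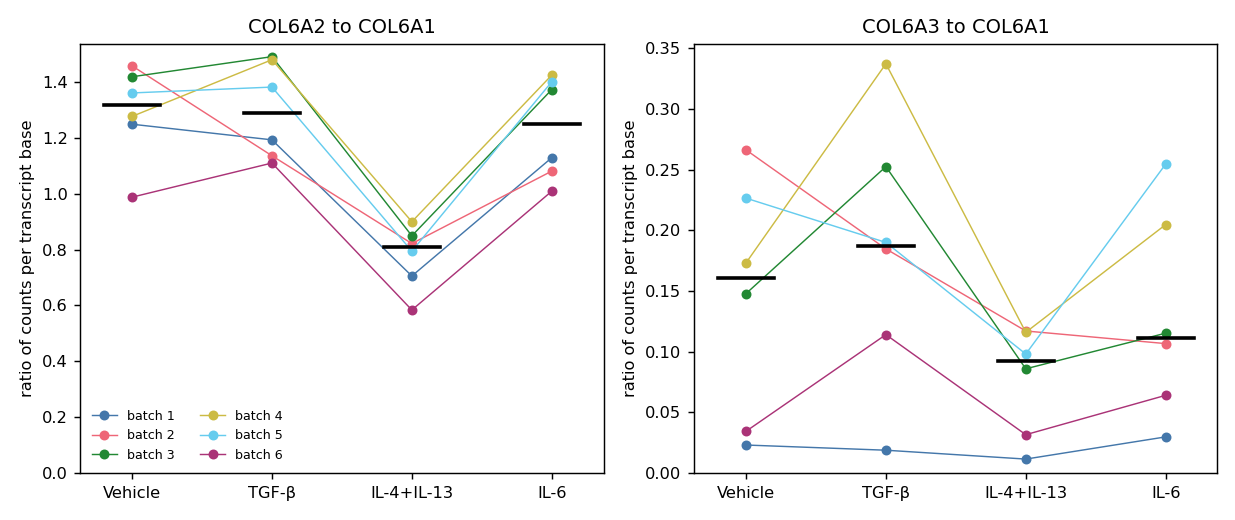
Ratio of counts per transcript base of COL6A2 to COL6A1 (left) and of COL6A3 to COL6A1 (right) in every library, by group. Lines join the cultures of a batch and black bars are group medians. The COL6A2 to COL6A1 ratio lies between 0.584 and 0.900 under IL-4+IL-13 and at or above 0.988 elsewhere, whereas the COL6A3 to COL6A1 ratio differs mostly between batches.

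COL6A3, the gene of the long α3 chain, followed the batch more than the treatment. Its normalized counts had a lowest, median and highest value of 1263, 6360 and 13468 in vehicle, 1383, 7981 and 17338 under TGF-β, 1762, 8836 and 14859 with IL-4+IL-13, and 1670, 4098 and 11766 under IL-6. All groups overlapped, and the low values came from batches 1 and 6, which ranged from 1263 to 4524 against 2964 to 17338 in the other batches. Differences between batches made up 80.6% of the sum of squares of its log2 level and differences between treatments 5.37%. The corresponding shares were 19.1% and 73.2% for COL6A1 and 50.6% and 28.2% for COL6A2.

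No treatment changed COL6A3 past the threshold. The edgeR log2 changes were 0.42 ± 0.31 under IL-4+IL-13, 0.47 ± 0.31 under TGF-β and -0.17 ± 0.32 under IL-6 (SE, adjusted p = 0.816, 0.966 and 0.943), and 0.61, 0.67 and 0.22 in batches 1, 3, 5 and 6 only. Relative to COL6A1, COL6A3 was lower than in vehicle in 6 of 6 batches under IL-4+IL-13, with a difference of -0.82 ± 0.42 (SD, log2, exact sign-flip p = 0.0312, adjusted 0.188). The added exact permutation test over the 4 libraries of each batch gave -0.95 with an adjusted p of 0.00488. COL6A3 itself was above vehicle in 5 of 6 batches under IL-4+IL-13, by 0.51 on average, against 1.32 for COL6A1. The ratio tests thus rest on the rise of COL6A1, which the study had picked, and are not separate evidence about COL6A3. Across all libraries the COL6A3 to COL6A1 ratio per length ran from 0.0114 to 0.337, a wider range than that of COL6A2 to COL6A1 (0.584 to 1.49).

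COL6A5 and COL6A6, the genes of the α3-like chains, were measured from few reads and varied widely. COL6A5 had a lowest, median and highest normalized count of 0, 33.9 and 525 in vehicle, 0, 23.8 and 134 under TGF-β, 69.3, 159 and 222 with IL-4+IL-13, and 25.2, 55.7 and 229 under IL-6. No read was counted in the vehicle and TGF-β libraries of batch 3 or in the TGF-β library of batch 4, whereas the vehicle library of batch 4 had 567. The IL-4+IL-13 cultures were the most even, with an SD of 0.67 on the log2 scale against 3.34 in vehicle, and every one of them held at least 69 reads.

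No call was made for COL6A5, and its fitted changes rest on libraries with no reads. They were 1.83 ± 1.37 under IL-4+IL-13, -0.77 ± 1.38 under TGF-β and 0.17 ± 1.02 under IL-6 (SE, edgeR adjusted p = 0.819, 1 and 0.986). COL6A5 was above vehicle in 5 of 6 batches under IL-4+IL-13 and below it in batch 4. The IL-4+IL-13 change was 3.02 without batch 4, 0.93 without batch 3 and 3.33 in batches 1, 3, 5 and 6 only, and passed in none of them (edgeR adjusted p = 0.313, 0.935 and 0.424). The TGF-β change turned to 0.44 without batch 4 and was -0.04 in batches 1, 3, 5 and 6 only, and the IL-6 change was 1.21 in the same batches.

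COL6A6 had a lowest, median and highest normalized count of 56.8, 137 and 1038 in vehicle, 44.6, 90.0 and 403 under TGF-β, 176, 394 and 911 with IL-4+IL-13, and 71.3, 300 and 538 under IL-6. All groups overlapped, and the vehicle libraries of batches 4 and 5, at 972 and 1038, stood above the others of that group. TGF-β cultures were below their vehicle in 5 of 6 batches, with an edgeR change of -1.19 ± 0.63 (SE, adjusted p = 0.907), and -0.42 in batches 1, 3, 5 and 6 only. The changes under IL-4+IL-13 and IL-6 were 0.77 ± 0.64 and -0.09 ± 0.54 (SE, adjusted p = 0.838 and 0.989), and 1.74 and 0.71 in batches 1, 3, 5 and 6 only. The IL-4+IL-13 change was 1.41 without batch 4 and 0.16 without batch 3, and did not pass in any of these sets (edgeR adjusted p = 0.349, 0.984 and, in the 4 batches, 0.470).

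The contrast between TGF-β and IL-4+IL-13 was steadier for COL6A6. It was lower under TGF-β in 6 of 6 batches, with log2 differences from -4.01 to -0.94 and an edgeR difference of -1.96 ± 0.62 (SE) that did not pass (adjusted p = 0.183, and 0.0591 in the 12 libraries of both groups). It passed in DESeq2 (adjusted p = 0.00895), where 4.28% of all genes passed. COL6A5 was lower under TGF-β in 5 of 6 batches, and its difference of -2.59 ± 1.28 did not pass in edgeR (adjusted p = 0.534) or in DESeq2 (0.287). COL6A5 and COL6A6 are also among the genes that the study picked from these libraries.

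COL6A5 and COL6A6 were also compared with the trimer genes within each batch. Under TGF-β, the change of COL6A6 less the mean change of the trimer genes was -1.30 ± 1.96 (SD, log2), lower in 5 of 6 batches, which the exact sign-flip test did not separate from 0 (p = 0.0938, adjusted 0.375). It was -0.55 without batch 4 and -0.68 in batches 1, 3, 5 and 6 only. Against the mean of the other libraries of each batch the difference was -1.45, with an adjusted p of 0.00488 in the added exact permutation test. It was -1.03 without batch 4 and -1.24 in batches 1, 3, 5 and 6 only (adjusted exact p = 0.0195 and 0.0469). The other libraries include IL-4+IL-13 and IL-6, with mean COL6A6 log2 levels of 8.66 and 7.97 against 7.74 in vehicle. The permutation is therefore no test of TGF-β against vehicle, and COL6A6 is a gene the study picked. For COL6A5 under TGF-β, the change from vehicle less that of the trimer genes was -1.30 ± 4.48 (adjusted exact sign-flip p = 0.989), and 0.00 in batches 1, 3, 5 and 6 only. Under IL-4+IL-13 the changes relative to the trimer genes were 1.66 ± 3.42 for COL6A5 and 0.11 ± 1.96 for COL6A6 (SD, n = 6), with adjusted exact p values of 0.75 and 0.989, and 3.10 and 0.81 in batches 1, 3, 5 and 6 only.

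The neighbouring genes had the highest correlations among the members from library to library. Over the 24 libraries, after the mean of each batch was removed, Pearson's r was 0.946 between COL6A5 and COL6A6 and 0.889 between COL6A1 and COL6A2. It was 0.726 between COL6A2 and COL6A3, 0.486 between COL6A1 and COL6A3, and between -0.113 and 0.411 for the 6 pairs of a trimer gene with COL6A5 or COL6A6. These values are a description: the libraries share batches and treatments, and COL6A5 rests on low counts. The protein-coding genes on either side of both pairs, PCBP3, FTCD, ALG1L2 and PIK3R4, passed in none of the 4 comparisons. As 0% to 1.83% of all genes passed in these, a count of 0 is no result about the neighbours. FTCD and ALG1L2 had at most 10 and 16 reads in a library.

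Between batches, the members did not vary together past correction. With the 4 treatments averaged, COL6A1 and COL6A2 had the closest relation over the 6 batches (r = 0.894, exact permutation p = 0.0125, adjusted over 10 pairs 0.125; rho = 0.886, p = 0.0333, adjusted 0.333). Without the 2 batches farthest from the median of COL6A1, batches 1 and 2, r was 0.985. COL6A1 and COL6A3 had r = -0.282 (exact permutation p = 0.578, adjusted 0.963) with rho = -0.086 (exact p = 0.919, adjusted 1), and r = 0.975 without the same batches, so that value rests on them. None of the other pairs had an adjusted p below 0.739 for r or below 0.680 for rho.

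**Figure D4:**
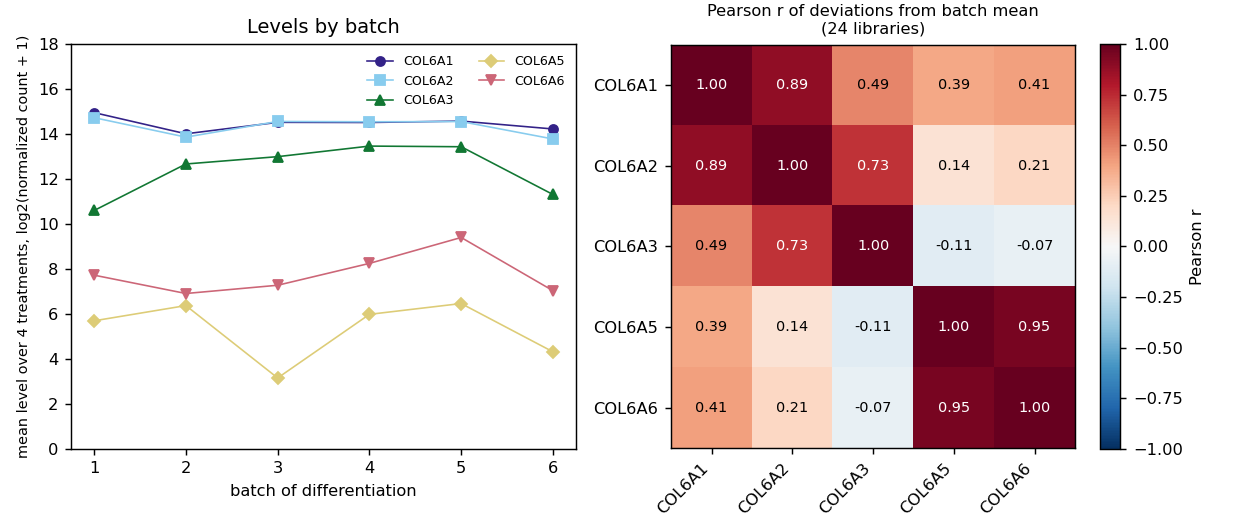
Left, mean level of each gene over the 4 treatments of a batch, as log2(normalized count + 1), for the 6 batches on the x axis. Right, Pearson's r of the deviations from the batch mean between each pair of genes over 24 libraries. COL6A3 is low in batches 1 and 6, and the closest pairs are COL6A5 with COL6A6 (0.946) and COL6A1 with COL6A2 (0.889).

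By the same measure over 24 libraries, the genes most like COL6A1 were PFKP, which encodes a phosphofructokinase of glycolysis (r = 0.984), NABP1 (0.970) and LRRFIP1 (0.957). For COL6A2 they were EHD3 (0.933), the chemokine gene CXCL6 (0.922) and PFKP (0.911). For COL6A3 they were KCNE4 (0.854), OTULINL (0.840) and POSTN, the gene of the matrix protein periostin (0.831). COL6A5 was most like GASK1A (0.911), ST8SIA6 (0.888) and LRRC52 (0.875), and COL6A6 was most like TPH1, of serotonin synthesis (0.891), LRRC52 (0.853) and the complement gene C7 (0.847). LRRC52 and GASK1A had mean counts of 59.9 and 50.3. These genes were picked for their likeness, so the values carry no test.

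Among 8 receptor genes for collagen VI, ITGA11, an integrin α chain for collagens, fell under IL-4+IL-13, lower in 6 of 6 batches with a log2 change of -1.59 ± 0.23 (SE, edgeR adjusted p = 0.00878). It was the 1 receptor gene to pass, in a comparison in which 0.324% of all genes passed. Of the 8, 3 had positive changes, with a median of -0.35 against 0.00 over all genes tested. Under TGF-β, where 0.0418% of all genes passed, none of the 8 did, 6 were positive and the median was 0.31. ITGB1, the β1 integrin chain, and ANTXR1, an anthrax toxin receptor that binds collagen VI, were the most abundant of the list, and their changes under IL-4+IL-13 were -0.41 ± 0.17 and 0.17 ± 0.11 (SE, edgeR adjusted p = 0.602 and 0.774). The ITGA11 call was lost without batch 5 or batch 6, with adjusted p values up to 0.0952. It was also lost in the edgeR fit of the 12 libraries of IL-4+IL-13 and vehicle (adjusted p = 0.121). ITGA11 is one of the genes the study named from these libraries, so its call is not independent evidence.

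Between TGF-β and IL-4+IL-13, where 1.83% of all genes passed, 3 of the 8 receptor genes passed as higher under TGF-β and none as lower. They were ITGA11 (2.41 ± 0.23, adjusted p = 0.000282), ITGA2 (0.92 ± 0.20, adjusted p = 0.0288) and ITGB1 (0.74 ± 0.17, adjusted p = 0.0399), each higher in 6 of 6 batches. This is the direction opposite to that of COL6A1. The ITGA2 and ITGB1 calls were lost without any 1 of batches 1, 3, 5 and 6, with adjusted p values up to 0.242 and 0.290. They were also lost with no filter on low counts (edgeR adjusted p = 0.0515 and 0.070).

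Of 14 matrix partners, fibrillar and basement membrane collagens among them, COL14A1 was the 1 to rise under IL-4+IL-13, higher in 6 of 6 batches by 2.60 ± 0.39 (SE, log2, edgeR adjusted p = 0.0115). COL14A1 encodes a collagen that associates with fibrils. Only 3 of the 14 had positive changes, and the median was -0.25. Of all genes tested, 0.324% passed in this comparison. COL1A1, the gene of the main chain of collagen I, had a change of -0.89 ± 0.28 (adjusted p = 0.375), while COL1A2 had -0.13 ± 0.11 (0.837). The COL14A1 call was lost without any 1 of batches 1, 3, 4, 5 and 6, with adjusted p values up to 0.0983. It was also lost in the edgeR fit of the 12 libraries of IL-4+IL-13 and vehicle (adjusted p = 0.134). COL14A1 is one of the genes the study named from these libraries, so its call is not independent evidence.

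Between TGF-β and IL-4+IL-13, COL1A1 (1.31 ± 0.28), COL4A1 (0.77 ± 0.14) and COL4A2 (0.59 ± 0.11) were higher under TGF-β in 6 of 6 batches, and COL14A1 was lower in 6 of 6 (-3.14 ± 0.39), with edgeR adjusted p values of 0.0275, 0.0121, 0.017 and 0.00157. COL4A1 and COL4A2 encode the chains of the basement membrane collagen IV. The COL1A1 call was lost without any 1 of batches 1, 3, 5 and 6, and the COL4A1 and COL4A2 calls without any 1 of batches 3, 4 and 6, with adjusted p values up to 0.167, 0.0677 and 0.0916. The 18 genes of collagen biosynthesis, the prolyl and lysyl hydroxylases and chaperones of the secretory pathway, included none that passed in any of the 4 comparisons. Of all genes tested, 0% to 1.83% passed in these. Their median change under IL-4+IL-13 was -0.06, and P4HB and PPIB, the most abundant, had 0.12 ± 0.10 and 0.19 ± 0.12 (adjusted p = 0.833 and 0.786).

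**Figure D5:**
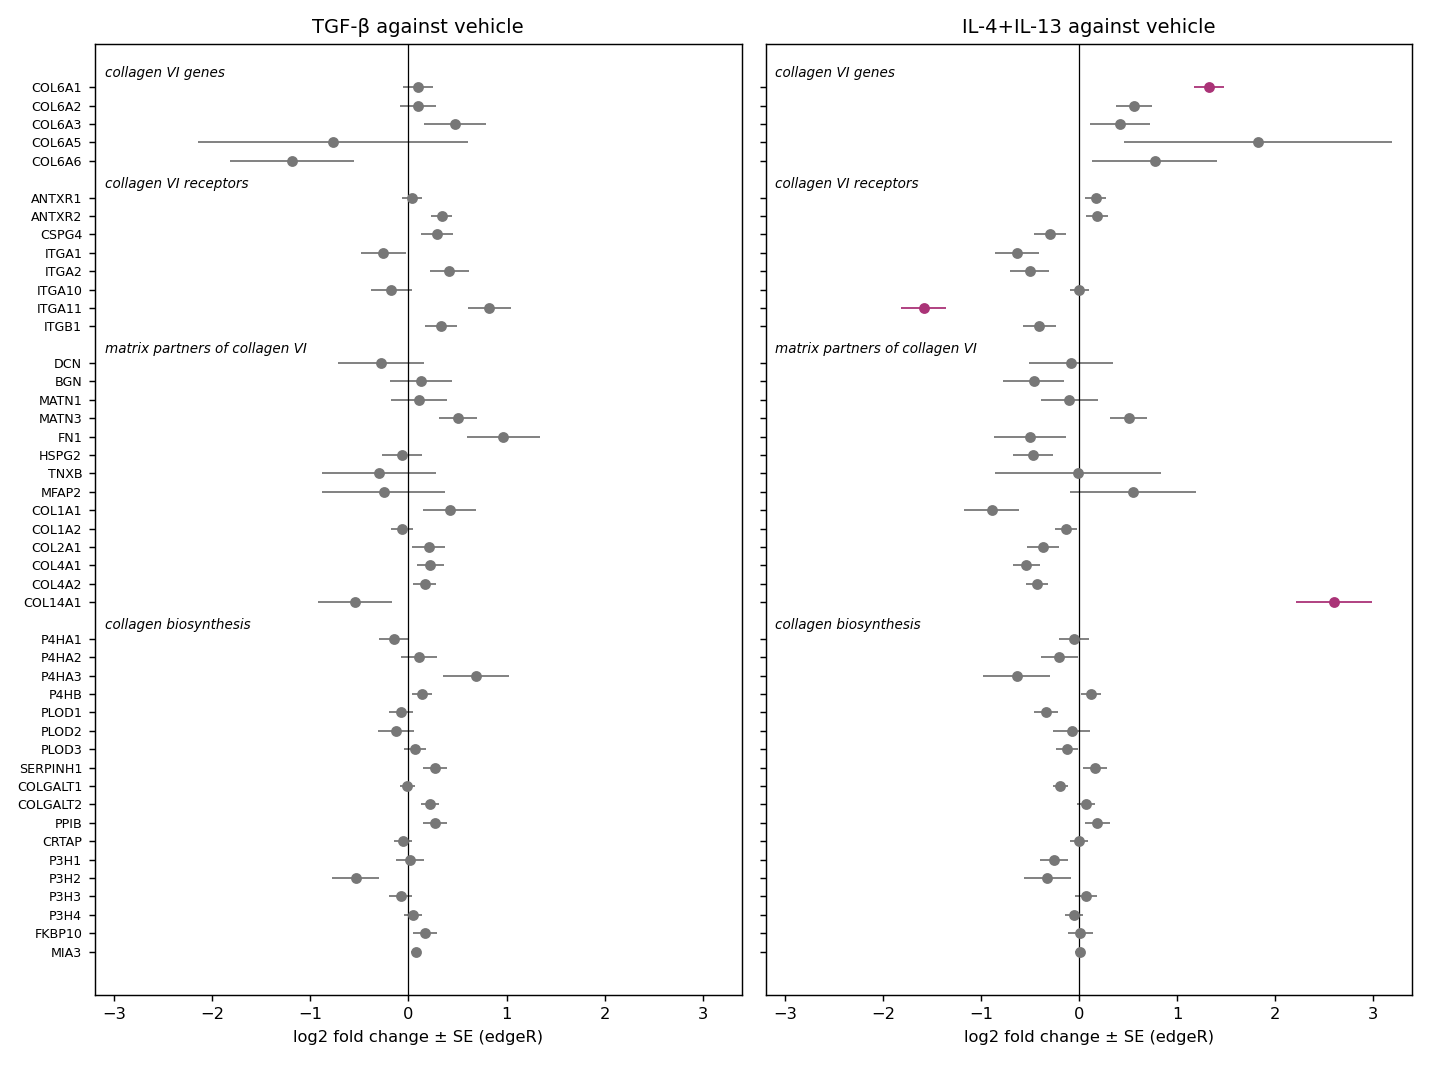
edgeR log2 fold changes with their SE against vehicle for the collagen VI genes, their receptors, matrix partners and the collagen biosynthesis genes, under TGF-β (left) and IL-4+IL-13 (right). Purple points passed at an adjusted p under 0.05. Under IL-4+IL-13 these are COL6A1, COL14A1 and ITGA11, and under TGF-β there are none.

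Under IL-6, none of the 5 members passed, and neither did any other of 29377 genes tested by edgeR (0%). Before adjustment 1400 of them had p under 0.05, fewer than the 5% that chance alone would give. DESeq2 called 134 genes (0.456%) for IL-6 and 1.01% of all genes for TGF-β, and none of the 5 members in either. For TGF-β against vehicle, none of the 5 members passed in edgeR, where 0.0418% of all genes did.

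The whole cultures carried markers of several cell types, which moved with some treatments. Summed CPM of 8 fibroblast or mesenchymal markers was 1546 to 6607 in vehicle, 2408 to 8727 with TGF-β and 1066 to 3861 with IL-4+IL-13. Under IL-4+IL-13 it was below vehicle in 5 of 6 batches, and 0 of the 8 markers had a positive edgeR change. COL1A1, with a mean count of 102500 against 12230 for the next, COL3A1, made up most of the sum. COL1A1 was above vehicle in 1 of 6 batches. COL3A1, TWIST1 and THY1 were above it in 2, 2 and 1 batches, PDGFRA and LUM in 3, and PDGFRB and DCN in 4. The 4 endothelial markers summed to 26.1 to 123 in vehicle and to 64.8 to 171 under IL-4+IL-13, above vehicle in 6 of 6 batches, though none passed the test. The 6 markers of Schwann cells or satellite glia summed to 59.6 to 114 in vehicle and were higher in 6 of 6 batches under TGF-β (90.8 to 173). The 6 neuron markers summed to 1251 to 4691 in vehicle and 1996 to 4647 under IL-4+IL-13, where 2 of 6 batches lay above their vehicle. Among the remaining lists, melanocyte markers were lower than vehicle in 6 of 6 batches under TGF-β, smooth muscle and epithelial markers were present in every group, AIF1 of the leukocyte list was at 0 in every library, and POU5F1 and NANOG of the pluripotent list reached at most 1 and 5 counts. The part of these cell types in the changes of the collagen VI genes was not tested.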

How the data were processed

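Whole cultures of H9-derived sensory neurons were sequenced (polyA RNA, Illumina NovaSeq) in 6 batches and 4 treatments. The table the authors deposited gives unnormalized read counts for each gene and library, none pooled. Their sequencing provider trimmed reads with Trimmomatic 0.30 and used GRCh38.p14 as the genome. The aligner, counter and strandedness are not given in the sources used here. How reads shared by paralogous chains were counted is not stated either.

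Only genes with at least 10 reads over a fit entered it. Counts were tested with edgeR 4.0.16 (TMM, robust quasi-likelihood test, additive batch and treatment terms, p values adjusted across every gene tested by the Benjamini-Hochberg method). The comparison of IL-6 used all 24 libraries, and the remaining comparisons the 18 libraries without IL-6. SEs were derived from the fold change and F statistic. DESeq2 1.42.0, its size factors, other filters, library sets and designs, and leaving out each batch were the alternatives. The batch numbers of the labels pair the cultures, and 20 of 24 libraries were most like their own batch. Levels are log2(normalized count + 1), and CPM for likeness had a prior count of 2. RPKM used GENCODE MANE Select lengths. Scripts were tested on simulated data.

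The text names all 5 members, list genes that passed, and otherwise the 2 most abundant of a list, besides the 3 genes most like each member with a mean count of at least 10. The members and lists were chosen with earlier results of these data known. The lists covered collagen VI receptors, matrix partners, collagen biosynthesis, response genes and 9 cell types. The result of 1 of the 11 response genes is not reported here. Each batch is 1 differentiation with 1 culture per group. The p values of treatment tests that take batch into account therefore measure the spread of within-batch differences over differentiations of 1 line. Differences between cultures of 1 differentiation are part of that spread.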

Additional observations from a re-analysis of the deposited data

Results flagged for a closer look

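In 32 sets of 6 batch values examined, 3 had 1 batch lying far from the others by Dixon's criterion, and chance alone marks about 1 in 20 such sets. All 3 concerned batch 4, whose vehicle library lay closer to batch 2 than to its own. The log2 change of the COL6A2 to COL6A1 ratio under IL-4+IL-13 was -0.505 in batch 4, the smallest fall, against -0.828 to -0.741 in the other 5 batches. The change of COL6A5 less that of the trimer genes under TGF-β was -9.931 in batch 4, where no TGF-β read was counted, against -2.009 to 2.142 elsewhere. For COL6A6 the same quantity was -5.079 in batch 4, against -1.498 to 0.369. Causes were not tested.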

How the results depend on the processing

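COL6A1 passed under IL-4+IL-13 and between TGF-β and IL-4+IL-13 in each alternative run except the 12 libraries of IL-4+IL-13 and vehicle, where 0 members passed against vehicle. Counts of members past the threshold were otherwise 1 or 2 in these comparisons. It was 2 against vehicle in batches 1, 3, 5 and 6 only, and 2 between the cytokines there, in DESeq2 and in the 12 libraries of both groups. Without each batch in turn it was 1 to 2 in both. The design without the replicate block, which ignores the pairing of cultures by batch, left 0, 9 and 23 genes for TGF-β, IL-4+IL-13 and the direct comparison, turned COL6A5 under IL-6 to -0.57, and kept COL6A1 (edgeR adjusted p = 0.0352 and 0.0487).

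Counts over all genes moved more. For TGF-β they were 289 (DESeq2), 24 (first entry of each symbol), 0 (12 libraries), 102 (all 24 libraries), 2 (batches 1, 3, 5 and 6), 6 (with a log2 fold beyond 1) and 0 to 20 without each batch. For IL-4+IL-13 they were 387, 27 and 186 in DESeq2, 12 and 24 libraries, and 21 to 131 without each batch. For the direct comparison they were 1228 (DESeq2), 874 (24 libraries), 257 (with the fold) and 118 to 739. For IL-6, DESeq2 called 134. The cause was not tested.

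Directions of changes that did not pass turned without single batches. Ranges under TGF-β were -0.0192 to 0.34 for COL6A2 and -1.66 to 0.44 for COL6A5, and between the cytokines -0.0655 to 0.14 for COL6A3. Under IL-6 they were -0.22 to 0.055 (COL6A1), -0.35 to 0.0572 (COL6A2), -0.32 to 0.30 (COL6A3), -0.27 to 1.01 (COL6A5) and -0.40 to 0.32 (COL6A6). In batches 1, 3, 5 and 6 only, COL6A3 and COL6A6 under IL-6 were 0.22 and 0.71, and COL6A6 was 0.17 in 12 libraries. The COL6A2 to COL6A1 ratio change ranged from -0.0329 to 0.0815 under TGF-β, from -0.11 to 0.0075 under IL-6 and from -0.79 to -0.72 under IL-4+IL-13. The COL6A3 to COL6A1 change under IL-6 was 0.00 with a pseudocount of 0.5, 0.27 in batches 1, 3, 5 and 6 and -0.18 to 0.26 without each batch. Relative to the trimer genes, COL6A5 under TGF-β ranged from -1.98 to 0.43 (0.0042 in the 4 batches), and COL6A6 from -0.40 to 0.72 under IL-4+IL-13 and from -0.074 to 0.73 under IL-6.

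In the permutation over the 4 libraries of each batch, under IL-4+IL-13 the COL6A2 and COL6A3 to COL6A1 differences were -0.72 and -0.95, under IL-6 0.18 and 0.14, and COL6A6 less the trimer genes under TGF-β was -1.45. Precision for COL6A5 and COL6A6 is limited by low counts, down to 0 in COL6A5.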
